A study of Mus musculus with 6 samples.

Results

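Tle6, Ooep, Khdc3, Padi6, Zbed3, Zar1, Npm2, Dppa3, H1foo and Btg4 are maternal-effect genes of the oocyte, and their transcripts were examined in whole mouse ovaries with and without a truncating mutation of Bnc1, the gene of the zinc finger protein basonuclin 1. The genes were taken by symbol, 10 of the 44788 genes listed in the count table. RNA-seq was done on ovaries of C57BL/6 J mice 8 weeks old, 3 of the genotype Bnc1+/+, named replicates 1, 4 and 7 as in the labels, against 3 of Bnc1tr/tr, named replicates 1, 2 and 3. The tr allele carries a short deletion in exon 4 of Bnc1, which shifts the reading frame and brings in a premature stop codon, in every cell of the body and not in the oocyte alone. Mice of both genotypes came from matings of heterozygotes, and the labels name no agent for either genotype. The labels do not say which mice were littermates or whether 1 ovary or both were taken from a mouse, so the tests below measure the spread between these 6 samples.

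A maternal-effect gene is one whose product, laid down in the egg by the mother, is needed by the embryo before its own genome takes over. Growing oocytes transcribe these genes heavily, store much of the mRNA in a silent state, and stop transcription when they reach full size. The products then act in several ways after fertilization. Proteins of the subcortical maternal complex sit beneath the membrane of the egg and early embryo, oocyte forms of chromatin proteins act on the parental genomes, and RNA-binding factors control when stored messages are kept, translated or destroyed. In an adult ovary the oocyte is the main source of these transcripts, but it gives a small part of the total RNA, most of which comes from granulosa cells, luteal cells and stroma.

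The sequences just before the starts of 4 of the genes are shown because they are among those that differed most between the genotypes (Zbed3, Btg4 and H1foo) or are an abundant gene whose genotypes overlapped (Padi6). Each line gives the 150 bases before the RefSeq start, 5′ to 3′ on the strand of the gene, with every E-box (CANNTG, the core that basic helix-loop-helix factors such as FIGLA can bind) in capitals.
Zbed3: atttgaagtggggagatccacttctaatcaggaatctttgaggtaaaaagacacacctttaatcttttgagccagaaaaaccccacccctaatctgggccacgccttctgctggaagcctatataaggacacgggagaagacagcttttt
Btg4: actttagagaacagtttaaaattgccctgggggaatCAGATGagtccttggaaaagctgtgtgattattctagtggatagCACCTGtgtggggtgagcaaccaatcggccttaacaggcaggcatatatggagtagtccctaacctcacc
H1foo: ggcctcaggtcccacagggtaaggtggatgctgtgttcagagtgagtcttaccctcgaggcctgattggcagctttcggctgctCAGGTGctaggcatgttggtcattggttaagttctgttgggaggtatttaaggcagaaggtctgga
Padi6: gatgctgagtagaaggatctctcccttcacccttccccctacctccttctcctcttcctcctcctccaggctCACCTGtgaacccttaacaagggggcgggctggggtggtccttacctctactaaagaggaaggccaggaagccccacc
In GRCm38.p6 these are chr13:95323455-95323604 on the plus strand for Zbed3, chr9:51115851-51116000 on the plus strand for Btg4, chr6:115944781-115944930 on the plus strand for H1foo and chr4:140742644-140742793 on the minus strand for Padi6. None of the 4 windows overlapped an annotated exon of GENCODE M21, and the Btg4 window lay inside the annotated extent of the gene, in an intron. Zbed3 had 3 annotated starts, and the one farthest upstream is shown, which holds no E-box.

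The RefSeq promoter table held 8 of the 10 genes, in 11 windows because Tle6 had 2 starts and Zbed3 had 3; H1foo is listed there as H1f8, and Npm2 and Dppa3 had no entry. On either strand, CANNTG was found in 10 of the 11 windows and in at least 1 window of all 8 genes, against 47.7% of the 32851 windows of the same length in the table. Genes with several windows had more chances to hold a match. The E-boxes began 114 and 70 bases before the start in Btg4, 66 bases before it in H1foo and 78 bases before it in Padi6. The special case CACGTG, which is itself a CANNTG, was found for 1 gene (Tle6), against 4.30% of all windows. CCAAT was found for Khdc3, Zbed3, H1foo and Btg4, against 24.5% of all windows. TATAAA, which 7.57% of all windows hold, and the homeobox letters TAATTG (4.05%) and TAATTA (2.73%) were in none of the 11 windows. As all 8 genes with a window held CANNTG, those called higher and those not called alike, it does not set any of them apart. A match describes letters and not binding.

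All 10 genes passed the filter on low counts, which kept 19423 genes, and their counts ranged from 397 to 10174 in an ovary. Totals of 25247770 to 34406296 reads were counted on genes. Levels are given as CPM, the counts scaled to a common library total with TMM factors (counts per 1e+06), in the order of replicates 1, 4 and 7 for Bnc1+/+ and 1, 2 and 3 for Bnc1tr/tr, with mean ± SD (n = 3 per genotype). A gene was called when the Benjamini-Hochberg adjusted p of edgeR's quasi-likelihood test was under 0.05. In these bulk samples, fewer oocytes and less RNA per oocyte cannot be told apart, and neither can their opposites. Bnc1 itself had 13.9, 13.4 and 13.1 CPM in Bnc1+/+ against 18.7, 13.7 and 11.5 CPM in Bnc1tr/tr ovaries (adjusted p = 0.733), and as the deletion leaves most of the transcript in place, this level does not check the labels.

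Zbed3, Npm2 and Btg4 were higher in Bnc1tr/tr ovaries, and none of the other 7 genes was called. The called genes are 3 of 10, where 2.88% of all genes tested were called higher and 7.06% in either direction. The 10 genes had positive log2 fold changes in this scaling, where 52.6% of all genes did, and 5 of them turned negative when the libraries were scaled to a set of growing oocyte transcripts, as given further on. Their median log2 fold change was 0.61 against 0.02 over all genes. For 6 genes every Bnc1tr/tr ovary lay above every Bnc1+/+ ovary, which 15.0% of all genes did, and 8 genes had a positive difference with an unadjusted p under 0.05, as 11.9% of all genes tested did. The calls depended on single ovaries. Without Bnc1tr/tr replicate 2 there were 7 called genes, where 3.09% of all genes were called higher. Without Bnc1+/+ replicate 1 or Bnc1tr/tr replicate 1 only Zbed3 was called, where 1.21% and 1.79% of all genes were. Without Bnc1+/+ replicate 4, Bnc1+/+ replicate 7 or Bnc1tr/tr replicate 3 there were 0, where the shares of all genes were 0.470%, 0.621% and 1.15%. In each of those 3 fits 6 genes had an unadjusted edgeR p under 0.05 and all 10 differences stayed positive. Of all genes, 3474 of 19991, 3732 of 19971 and 3907 of 19912 had such a p there, in either direction. With library size in place of TMM, 6 of the 10 genes were called, where 5.72% of all genes were called higher, and the share of lower genes among all calls moved from 59.3% to 35.6%.

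**Figure D1:**
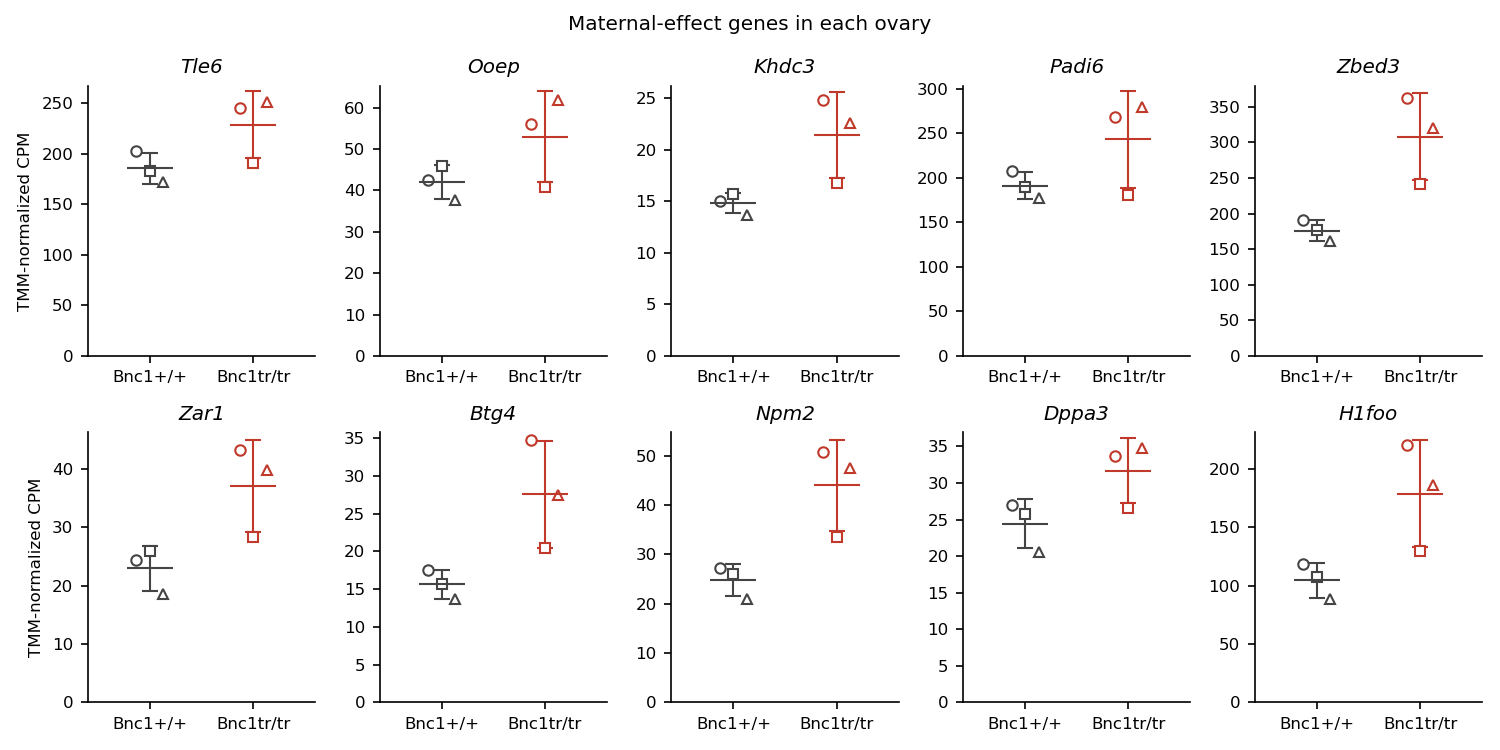
TMM-normalized CPM of the 10 maternal-effect genes in each ovary, with the y axis of each panel starting at 0; circles, squares and triangles are replicates 1, 4 and 7 of Bnc1+/+ (grey) and 1, 2 and 3 of Bnc1tr/tr (red), and bars give mean ± SD (n = 3). The square of Bnc1tr/tr is the lowest of its genotype in all 10 panels, and it lies among the Bnc1+/+ points for Tle6, Ooep, Padi6 and Dppa3.

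Tle6, Ooep, Khdc3, Padi6 and Zbed3 make up the group of the subcortical maternal complex and its partners. Their summed level was 657.5, 611 and 561 CPM in Bnc1+/+ against 956.5, 670.4 and 935 CPM in Bnc1tr/tr ovaries. The sums of the genotypes did not overlap, but of the single genes only Zbed3 was called. Without Zbed3 the sum in Bnc1tr/tr replicate 2 lay inside the range of Bnc1+/+. The median log2 fold change of the 5 genes was 0.35, with a range from 0.30 to 0.80.

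Zbed3 codes for a zinc finger protein that binds the complex and helps to place organelles in the oocyte, and it also binds axin in Wnt signalling. It was the gene of the 10 with the smallest adjusted p. Zbed3 (ENSMUSG00000041995.8, chr13:95323612-95337841 on the plus strand of GRCm38) had 191, 177 and 161 CPM in Bnc1+/+ ovaries and 362, 242 and 319.9 CPM in Bnc1tr/tr ovaries. Even the lowest Bnc1tr/tr ovary, replicate 2, was clear of the highest Bnc1+/+ ovary. The means were 176 ± 14.8 and 308 ± 61.1 CPM, and the log2 fold change was 0.80 ± 0.15 (SE, adjusted p = 0.0227). It was called in 10 of 13 alternative analyses, more often than any other of the 10 genes. An intron of Zbed3 holds the small nucleolar RNA gene Snora47, which has its own row with at most 22 counts.

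Khdc3 (also Filia), a KH domain protein of the complex with a known part in genome stability of the embryo, lies at chr9:73101836-73104438 on the plus strand (ENSMUSG00000092622.8). It had 15.1, 15.7 and 13.7 CPM in Bnc1+/+ against 24.9, 16.8 and 22.6 CPM in Bnc1tr/tr ovaries. The genotypes were separate, although Bnc1tr/tr replicate 2 stood close to the Bnc1+/+ ovaries. Its log2 fold change of 0.53 ± 0.15 did not pass the threshold (adjusted p = 0.0821). A second annotated gene, Gm20509, overlaps Khdc3 and has no row in the table, so how reads shared by both were counted is uncertain.

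Tle6, a member of the Groucho family of corepressor-like proteins that is a core part of the complex, lies at chr10:81590904-81601073 on the minus strand (ENSMUSG00000034758.12). Its levels were 202, 183 and 172 CPM in Bnc1+/+ against 245, 190.3 and 251 CPM in Bnc1tr/tr ovaries. Replicate 2 of Bnc1tr/tr lay inside the range of Bnc1+/+, while the other two Bnc1tr/tr ovaries lay above it. The log2 fold change was 0.30 ± 0.12 (adjusted p = 0.190), the smallest of the 10.

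Padi6 codes for a peptidylarginine deiminase family protein needed for the cytoplasmic lattices of the oocyte and lies at chr4:140727355-140742643 on the minus strand (ENSMUSG00000040935.12). It had 207, 189.7 and 177 CPM in Bnc1+/+ against 269, 181 and 279 CPM in Bnc1tr/tr ovaries. Here Bnc1tr/tr replicate 2 was below 2 of the 3 Bnc1+/+ ovaries. The log2 fold change was 0.35 ± 0.16 (adjusted p = 0.244), and Padi6 was called in 1 of 13 alternatives, without Bnc1tr/tr replicate 2.

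Ooep (also Floped) is a small KH domain protein without which the complex does not form, and its gene lies at chr9:78376109-78378725 on the minus strand (ENSMUSG00000032346.7). Its levels were 42.4, 46.0 and 37.6 CPM in Bnc1+/+ against 56.2, 40.7 and 62.0 CPM in Bnc1tr/tr ovaries. The same single ovary, Bnc1tr/tr replicate 2, made the genotypes overlap. The log2 fold change was 0.33 ± 0.16 (adjusted p = 0.246).

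Zar1 and Btg4 act on maternal mRNA. Zar1 binds stored messages and is needed for their storage in the oocyte, whereas Btg4 is an adaptor that brings the CCR4-NOT deadenylase to maternal messages when the oocyte matures, so that they are cleared. Together they had 41.8, 41.6 and 32.3 CPM in Bnc1+/+ against 77.9, 48.7 and 67.4 CPM in Bnc1tr/tr ovaries, with no overlap. Btg4 was called and Zar1 was not.

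Btg4 (ENSMUSG00000032056.10, chr9:51060901-51119875, plus strand) had 17.5, 15.7 and 13.7 CPM in Bnc1+/+ against 34.7, 20.4 and 27.5 CPM in Bnc1tr/tr ovaries. All 3 Bnc1tr/tr ovaries were higher than any Bnc1+/+ ovary, and replicate 1 was the highest. The means were 15.6 ± 1.91 and 27.6 ± 7.14 CPM, with a log2 fold change of 0.82 ± 0.19 (adjusted p = 0.0465), just inside the threshold. It was called in 7 of 13 alternatives, and limma-voom gave an adjusted p of 0.0583. Layn and 4833427G06Rik overlap Btg4 on the opposite strand. Strand use in the counting is not given in the sources used here, and the log2 fold change of Layn was -0.25 (adjusted p = 0.518).

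Zar1 (ENSMUSG00000063935.3, chr5:72576806-72581254, minus strand) had 24.3, 25.9 and 18.6 CPM in Bnc1+/+ against 43.1, 28.2 and 39.9 CPM in Bnc1tr/tr ovaries. The genotypes were separate by a narrow margin, set by Bnc1+/+ replicate 4 and Bnc1tr/tr replicate 2. Its log2 fold change was 0.69 ± 0.18 (adjusted p = 0.0657), and it was called in 4 of 13 alternatives.

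Npm2, Dppa3 and H1foo act on chromatin. Nucleoplasmin 2 organizes nuclear and nucleolar chromatin of the oocyte, Dppa3 (also Stella or PGC7) guards DNA methylation of the maternal genome in the zygote, and H1foo is the linker histone of the oocyte. Their median log2 fold change was 0.77, with a range from 0.37 to 0.83, and 1 of the 3 was called.

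Npm2 (ENSMUSG00000047911.6, chr14:70647302-70659244, minus strand) had 27.2, 26.0 and 21.0 CPM in Bnc1+/+ against 50.7, 33.6 and 47.5 CPM in Bnc1tr/tr ovaries. No ovary of one genotype entered the range of the other. The means were 24.8 ± 3.28 and 43.9 ± 9.13 CPM, and the log2 fold change of 0.83 ± 0.17 was the largest of the 10 (adjusted p = 0.0323). Npm2 was called in 8 of 13 alternatives. Xpo7 overlaps Npm2 on the same strand and had a log2 fold change of 0.04 (adjusted p = 0.834).

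H1foo (ENSMUSG00000042279.13, chr6:115944938-115950236, plus strand) had 118, 107 and 88.8 CPM in Bnc1+/+ against 220.5, 129.9 and 186 CPM in Bnc1tr/tr ovaries. Its genotypes were separate, and its Bnc1tr/tr ovaries were more spread than those of most of the 10 genes. The log2 fold change of 0.77 ± 0.19 missed the threshold (adjusted p = 0.0569). H1foo was called in 4 of 13 alternatives, among them DESeq2 (adjusted p = 0.00192).

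Dppa3 (ENSMUSG00000046323.8, chr6:122626410-122630272, plus strand) had 27.1, 25.7 and 20.6 CPM in Bnc1+/+ against 33.6, 26.6 and 34.8 CPM in Bnc1tr/tr ovaries. The overlap came from a single pair, Bnc1tr/tr replicate 2 and Bnc1+/+ replicate 1. Its log2 fold change was 0.37 ± 0.14 (adjusted p = 0.164). Dppa3, Tle6 and Ooep were called in none of the 13 alternatives. A pseudogene, Dppa3-ps, is annotated on the X chromosome and has no row in the table, so reads shared with it would be uncertain.

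**Figure D2:**
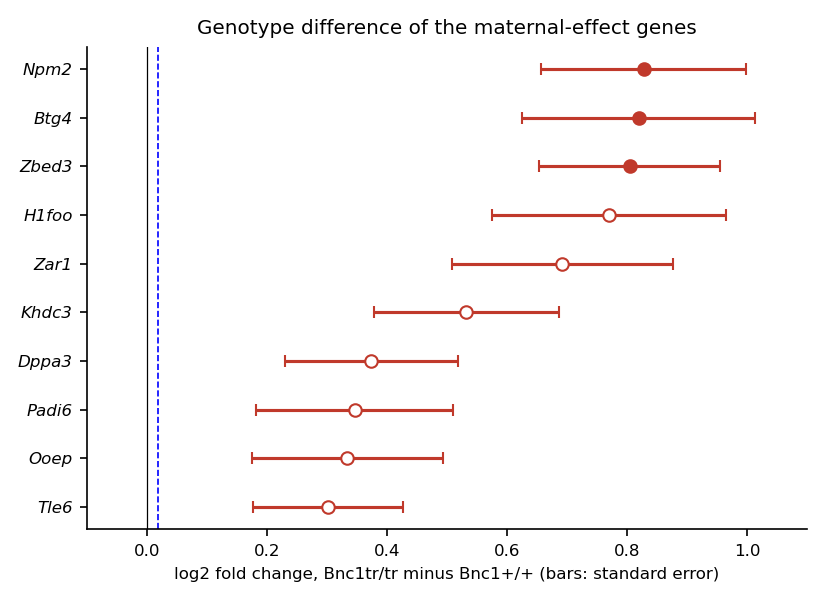
Log2 fold change (Bnc1tr/tr minus Bnc1+/+) of the 10 maternal-effect genes with its standard error, ordered by size; filled points have an adjusted p under 0.05 and the dashed line is the median of all genes tested, 0.02. Npm2, Btg4 and Zbed3 lie near 0.8, as does H1foo (0.77), which was not called. Zar1 (0.69) and Khdc3 (0.53) follow, and Tle6, Ooep, Padi6 and Dppa3 lie between 0.30 and 0.37. The values of Tle6, Ooep, Khdc3, Padi6 and Dppa3 turn negative when libraries are scaled to growing oocyte transcripts.

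The 10 genes followed one another closely across the ovaries. Bnc1tr/tr replicate 2 was the lowest of its genotype for 10 of 10 genes, and Bnc1+/+ replicate 7 was the lowest of its genotype for 10 of 10. Bnc1tr/tr replicate 1 was the highest of its genotype for 6 genes and Bnc1+/+ replicate 1 for 7. The summed level of the 10 genes was 872, 812 and 724 CPM in Bnc1+/+ against 1339, 909 and 1271 CPM in Bnc1tr/tr ovaries. These sums did not overlap, but without Zbed3 they did. The coefficient of variation was 6.76% to 16.7% in Bnc1+/+ against 14.04% to 25.9% in Bnc1tr/tr ovaries, larger in Bnc1tr/tr for all 10 genes, which share the same 6 libraries.

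Per length of exon, H1foo had the highest level of the 10 and Btg4 the lowest in Bnc1+/+ ovaries. The length took in every annotated exon base of a gene over all its transcripts. The length of the transcript made in the oocyte was not used, so the order between genes depends on this divisor. On the scale of CPM per kilobase of exon, the Bnc1+/+ levels were 87.4 ± 12.5 for H1foo, 79.0 ± 6.64 for Zbed3, 75.5 ± 6.01 for Padi6 and 60.1 ± 4.95 for Tle6. A middle group of Dppa3, Npm2 and Ooep followed at 27.4 ± 3.81, 23.9 ± 3.17 and 19.6 ± 1.96. Khdc3, Zar1 and Btg4 came last at 7.24 ± 0.489, 6.62 ± 1.11 and 6.11 ± 0.747. The ranges of neighbours in this order overlapped over the ovaries, except that Padi6 stood above Tle6, Tle6 above Dppa3, and Ooep above Khdc3. Within each single Bnc1+/+ ovary, every pair of neighbours kept this order. In Bnc1tr/tr ovaries the first 4 genes kept their order, with H1foo at 149 ± 38.1 and Zbed3 at 138.0 ± 27.4, and Npm2 (42.4 ± 8.81) stood before Dppa3 (35.5 ± 4.99). The ranges of Npm2 and Dppa3 overlapped in both genotypes. Within single ovaries, Dppa3 stood above Npm2 in all 3 Bnc1+/+ ovaries, and Npm2 above Dppa3 in all 3 Bnc1tr/tr ovaries. This change of order depends on the exon lengths used, 1036 bases for Npm2 and 892 for Dppa3. In CPM without division by length, Npm2 stood above Dppa3 in every ovary of both genotypes, in Bnc1+/+ by little. Btg4, Zar1 and Khdc3 were last at 10.8 ± 2.79, 10.7 ± 2.26 and 10.5 ± 2.03 and overlapped.

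To set the 10 genes against other RNA of the same cell, they were compared with 6 transcripts of growing oocytes, the zona pellucida genes Zp1, Zp2 and Zp3, the growth factors Gdf9 and Bmp15, and Oosp1, which codes for a secreted oocyte protein. The mean log2 CPM of the 10 genes was 5.74, 5.69 and 5.45 in Bnc1+/+ against 6.40, 5.84 and 6.32 in Bnc1tr/tr ovaries. That of the growing oocyte transcripts was 6.06, 5.96 and 5.66 in Bnc1+/+ against 6.77, 6.14 and 6.74 in Bnc1tr/tr ovaries. Both means were separate between the genotypes, with the Bnc1tr/tr ovaries above. Gdf9 (log2 fold change 0.78, adjusted p = 0.0458), Bmp15 (0.93, adjusted p = 0.0204) and Oosp1 (1.04, adjusted p = 0.0262) were called higher, and Zp1 (0.77, adjusted p = 0.0512), Zp2 (0.22, adjusted p = 0.502) and Zp3 (0.31, adjusted p = 0.394) were not. Gdf9 stayed called in 1 and Bmp15 and Oosp1 in 2 of the 6 fits without 1 ovary. The median log2 fold change of the 6 transcripts was 0.77, and 3 of them were called higher, as 2.88% of all genes tested were. The 6 transcripts did not all move together. Relative to the mean of the 10 genes, Zp2 (-0.36) and Zp3 (-0.28) were lower in every Bnc1tr/tr ovary, as 48.8% of all genes were. Zp1 (0.18), Gdf9 (0.20), Bmp15 (0.34) and Oosp1 (0.47) were higher in every one, as 2.09% of all genes were.

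After subtraction of the growing oocyte transcripts, the mean of the 10 genes was -0.32, -0.28 and -0.21 in Bnc1+/+ against -0.37, -0.30 and -0.41 in Bnc1tr/tr ovaries on the log2 scale. The genotypes overlapped, and the means differed by -0.09 (-0.27 ± 0.06 against -0.36 ± 0.06). The single genes did not share 1 direction. Relative to the growing oocyte transcripts, Npm2 was higher in every Bnc1tr/tr ovary than in any Bnc1+/+ ovary, where 1.67% of all genes were, with means that differed by 0.16 on the log2 scale, and Tle6 (-0.36), Ooep (-0.34), Padi6 (-0.33) and Dppa3 (-0.28) were lower without overlap, where 49.2% of all genes were. A count of 4 of 10 is thus no larger a share than that of all genes. The other 5 genes overlapped, with differences of -0.14 for Khdc3, 0.13 for Zbed3, 0.03 for Zar1, 0.09 for H1foo and 0.13 for Btg4. An exact two-sided permutation test with 3 ovaries against 3 cannot give a p under 0.1, which is the value for each gene without overlap.

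A second reference held 6 genes that oocytes express from the primordial follicle on, namely the RNA helicase Ddx4, the RNA-binding protein Dazl, and the transcription factors Figla, Nobox, Lhx8 and Sohlh1. Its mean log2 CPM was 2.24 ± 0.12 in Bnc1+/+ against 2.44 ± 0.26 in Bnc1tr/tr ovaries, which overlapped. After its subtraction the mean of the 10 genes was 3.44, 3.37 and 3.36 in Bnc1+/+ against 3.85, 3.70 and 3.71 in Bnc1tr/tr ovaries. These did not overlap and differed by 0.36 on the log2 scale. For 8 of the 10 genes the Bnc1tr/tr ovaries were all above the Bnc1+/+ ovaries relative to this reference, where 5.25% of all genes were, and 15.5% of all genes were below. The differences ran from 0.09 for Tle6 to 0.61 for Npm2, and Ooep (0.11) and Padi6 (0.12) overlapped. Of the early genes themselves, Dazl was called higher (log2 fold change 1.09, adjusted p = 0.0459, and called in 1 of the 6 fits without 1 ovary), and Sohlh1 had 3.20, 3.41 and 3.24 CPM in Bnc1+/+ against 2.31, 2.58 and 2.29 CPM in Bnc1tr/tr ovaries, separate in the other direction (log2 fold change -0.46, adjusted p = 0.189). The early genes thus did not move together, and most have low counts.

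The 10 genes were also set against one another. Relative to the mean of the other 9 genes, Npm2 (0.28), Btg4 (0.25), Zbed3 (0.25) and H1foo (0.20) took higher values in every Bnc1tr/tr ovary on the log2 scale. Tle6 (-0.30), Ooep (-0.27), Padi6 (-0.27) and Dppa3 (-0.21) took lower values in every Bnc1tr/tr ovary. Khdc3 (-0.06) and Zar1 (0.13) overlapped. As the differences are taken against the same group, a higher value of some genes entails a lower value of others; relative to the mean of all 10, 2.09% of all genes tested were higher and 48.8% lower without overlap, so that 4 lower genes of 10 are no larger a share than that of all genes. For Npm2 the values were -1.08, -1.09 and -1.17 in Bnc1+/+ against -0.82, -0.86 and -0.83 in Bnc1tr/tr ovaries. Bnc1tr/tr replicate 2, which had the least of all 10 transcripts among the Bnc1tr/tr ovaries, was thus not set apart from its genotype on this scale. For Tle6 they were 2.13, 2.03 and 2.20 in Bnc1+/+ against 1.70, 1.92 and 1.83 in Bnc1tr/tr ovaries. Ooep, Tle6 and Padi6, which were lower on this scale, are of the subcortical maternal complex, and so is Zbed3, which was higher.

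**Figure D3:**
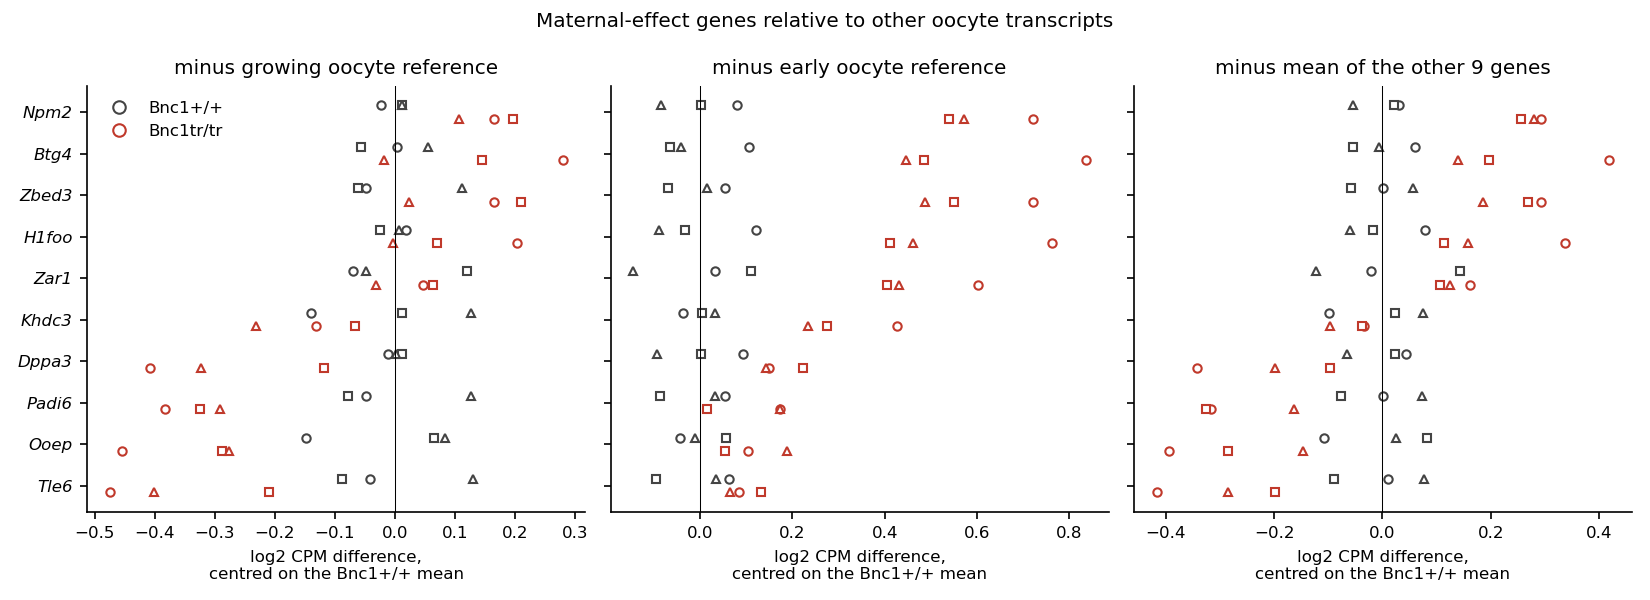
Log2 CPM of each of the 10 genes minus the mean of 6 growing oocyte transcripts (left), of 6 early oocyte transcripts (middle) and of the other 9 genes (right), centred on the Bnc1+/+ mean of each gene; each point is an ovary, with the same symbols by replicate as the plot of CPM. Against the growing oocyte transcripts Tle6, Ooep, Padi6 and Dppa3 lie lower in every Bnc1tr/tr ovary and Npm2 higher, and against the early transcripts 8 genes lie higher.

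Other genes with maternal effects were looked at in 2 lists. Of 9 that are expressed mainly in germ cells, 3 were called higher and 1 lower, with a median log2 fold change of 0.48. Of all genes tested, 2.88% were called higher and 4.19% lower. DESeq2 called 6 of the 9 and limma-voom 3, in either direction. An unadjusted edgeR p under 0.05 was found for 6, where 4698 of the 19423 genes tested had one. Dnmt3l, a cofactor of DNA methylation in the oocyte, had 3.64, 3.90 and 3.24 CPM in Bnc1+/+ against 8.29, 6.08 and 7.40 CPM in Bnc1tr/tr ovaries (log2 fold change 1.01, adjusted p = 0.0192). Zfp57, which keeps imprints in the embryo, had a log2 fold change of 0.60 (adjusted p = 0.0426), or -0.08 with the libraries scaled to growing oocyte transcripts, and Kpna7, an importin of the oocyte, of 0.77 (adjusted p = 0.0489). Dnmt3l stayed called in 2, and Zfp57 and Kpna7 in 1, of the 6 fits without 1 ovary. Nlrp5 (also Mater), another core protein of the subcortical maternal complex, had 86.8, 85.3 and 71.6 CPM in Bnc1+/+ against 90.5, 65.6 and 101 CPM in Bnc1tr/tr ovaries. The genotypes overlapped, and its log2 fold change was 0.08 ± 0.16 (adjusted p = 0.803); it is named beside its partners, after its value was seen.

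Pabpn1l went the other way. Its protein binds poly(A) tails and works with Btg4 in the clearance of maternal messages. Pabpn1l had 11.7, 10.21 and 8.17 CPM in Bnc1+/+ against 5.30, 3.002 and 2.57 CPM in Bnc1tr/tr ovaries. Every Bnc1tr/tr ovary was below every Bnc1+/+ ovary, with counts of 237 to 338 against 73 to 149. The log2 fold change was -1.46 ± 0.29 (adjusted p = 0.0275), whereas that of Btg4 was 0.82. It ran from -1.84 to -1.27 over the 13 alternatives, of which 8 called it, and it stayed called in 1 of the 6 fits without 1 ovary. A long annotated gene, Gm20388, spans Pabpn1l on the opposite strand.

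Of 18 genes with maternal effects that other cells also express, Bnc1 among them, edgeR called 0 in either direction. Their median log2 fold change was 0.15. An unadjusted edgeR p under 0.05 was found for 5, where 4698 of the 19423 genes tested had one in either direction. DESeq2 called 2 of the 18, Igf2bp2 and Uhrf1, and limma-voom 0. The 12 subunits of the CCR4-NOT and PAN2-PAN3 deadenylases, of which Btg4 recruits CCR4-NOT, also gave 0 calls by edgeR, DESeq2 and limma-voom. They had 1 unadjusted edgeR p under 0.05 and a median of -0.01. Of 8 genes of mRNA storage in the oocyte, edgeR called 0, although 6 had an unadjusted p under 0.05 and DESeq2 called 2 (Cpeb1 and Ybx2; limma-voom 0), and the median was 0.41. Their summed level was 440.1, 431 and 422 CPM in Bnc1+/+ against 579, 448 and 496 CPM in Bnc1tr/tr ovaries, without overlap. The largest difference among them was that of Cpeb1, which binds messages with cytoplasmic polyadenylation elements (log2 fold change 0.77, adjusted p = 0.0551).

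Paralogs of the 10 genes were called in both directions, and some of them, such as Zar1l, are themselves genes of the oocyte. Of 28 paralogs tested, 1 was called higher and 2 lower, with a median of 0.16. An unadjusted edgeR p under 0.05 was found for 14, where 4698 of the 19423 genes tested had one in either direction. DESeq2 called 8 paralogs and limma-voom 2. In the 6 fits without 1 ovary, Tle2 stayed called in 5, Npm1 in 2 and Hist1h1d in 0. Npm1, the general nucleophosmin, had a log2 fold change of 0.41 (adjusted p = 0.0271), which became -0.23 with the libraries scaled to growing oocyte transcripts. Tle2 had 175, 238 and 267 CPM in Bnc1+/+ against 79.6, 115 and 100.2 CPM in Bnc1tr/tr ovaries, and fell (log2 fold change -1.21, adjusted p = 0.0110), whereas the log2 fold change of Tle6 was 0.30. The replication-dependent linker histone gene Hist1h1d had a log2 fold change of -1.94 (adjusted p = 0.0446) at 8 to 78 counts in an ovary, whereas that of H1foo was 0.77.

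The transcripts most like the 10 genes across the 6 ovaries were Gsg2, Rimkla, Ccno, Mfsd2a, Brca2, E330034G19Rik, Cntn2, Cpsf4l, Pdzk1 and Tuba4a. Likeness was Pearson's r with the mean of the standardized log2 CPM of the 10 genes over 6 ovaries, and it ran from 0.9965 to 0.9939 among 16743 genes. The ovaries share their libraries, so r is given as a description only. Ccno, a cyclin-like protein of the oocyte, had 46.8, 45.2 and 38.2 CPM in Bnc1+/+ against 82.3, 53.2 and 79.4 CPM in Bnc1tr/tr ovaries. E330034G19Rik had 28.0, 28.3 and 22.9 CPM and 56.7, 32.8 and 51.4 CPM. As both were picked for their likeness, they share by selection the direction between genotypes and the dip in Bnc1tr/tr replicate 2 that the 10 genes have. Ccno and E330034G19Rik were the ones called higher among these transcripts (adjusted p = 0.0461 and 0.0480). The oocyte references, the germ cell list and the mRNA storage list were ranked as well. Of their genes, Nlrp4f (rank 20), Gdf9 (21), Zp1 (24) and Kpna7 (28) were the most alike. Zp2 (1470) and Nlrp5 (3080) were far down, and Ddx4 (5799) and Figla (7856) farther. Ddx6 (10594, r = -0.303), Pabpn1l (12942, r = -0.601) and Sohlh1 (16145, r = -0.890) came last, with negative r.

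Luteal transcripts moved in the opposite direction. Of 9 markers of the corpus luteum, the gland that forms from the follicle after ovulation, 8 were called lower, where 4.19% of all genes were. Their sum was 23360, 28070 and 27150 CPM in Bnc1+/+ against 7340, 12700 and 11150 CPM in Bnc1tr/tr ovaries. Bnc1tr/tr replicate 2, with the lowest levels of the 10 genes in its genotype, thus had the highest luteal sum of that genotype. The leading ones by p were Lhcgr, the receptor of luteinizing hormone (log2 fold change -3.01), and Scarb1, which takes up cholesterol (-1.86), followed by Prlr (-1.45), Sfrp4 (-2.54), Cyp11a1 (-1.52) and Ptgfr (-2.05). Lhcgr and Scarb1 stayed called in all 6 fits without 1 ovary, Prlr in 4, and the other 5 called markers in 1 or 2. Of 12 granulosa cell markers only Amh was called (log2 fold change 1.06, adjusted p = 0.0294), and their sum was 5181 to 6553 CPM in Bnc1+/+ against 5563 to 8668 CPM in Bnc1tr/tr ovaries. Of 5 theca cell markers only Fabp3 was called (0.56, adjusted p = 0.0370, and -0.07 with the libraries scaled to growing oocyte transcripts), and the sums overlapped at 176 to 265 and 182 to 492 CPM. Amh and Fabp3 each stayed called in 1 of the 6 fits without 1 ovary. The sum of 6 macrophage markers was 262 to 286 and 182 to 334 CPM, with 0 called by edgeR, DESeq2 or limma-voom and 1 unadjusted edgeR p under 0.05.

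Oviduct markers set 2 ovaries apart. Their sum was 494 CPM in Bnc1tr/tr replicate 3 and 133 CPM in Bnc1+/+ replicate 1, and 9.32 to 26.1 CPM in the other 4 ovaries; edgeR called 0 of the 5 tested, where 1 (Pax8) had an unadjusted p under 0.05 and was called by DESeq2 and not by limma-voom. No marker of any list was at 0 in all ovaries. The part of luteal and oviduct RNA in the differences of the 10 genes was not tested, and the calls without each of those 2 ovaries are given above.

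**Figure D4:**
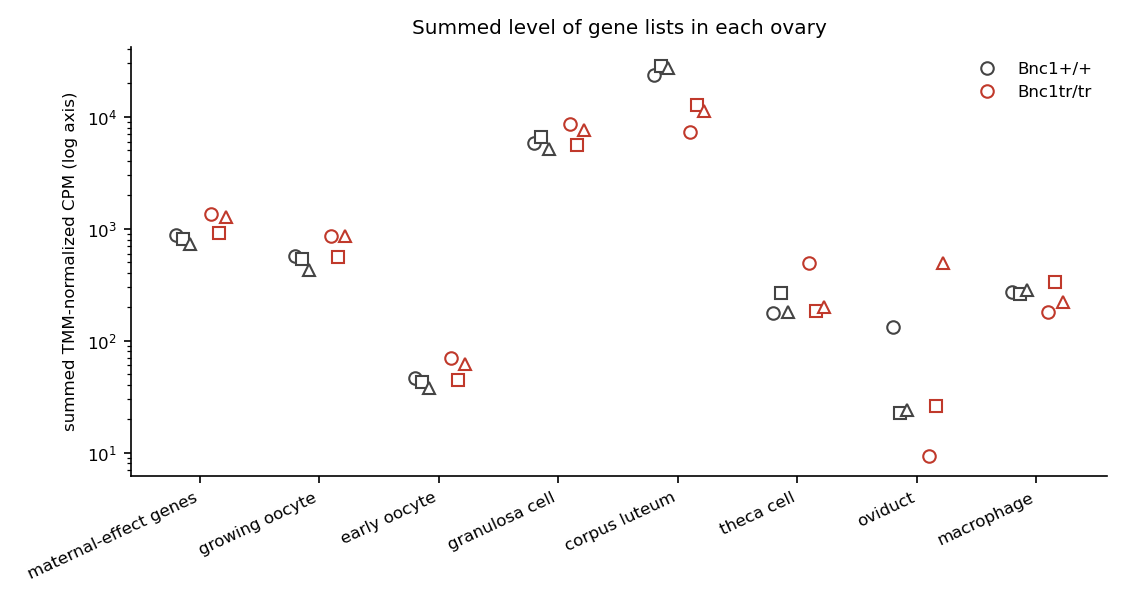
Summed TMM-normalized CPM (log axis) of the 10 maternal-effect genes and of 7 lists of cell type markers in each ovary, grey for Bnc1+/+ and red for Bnc1tr/tr, with the same symbols by replicate as the plot of CPM. The maternal-effect genes (724 to 872 against 909 to 1339 CPM) and the corpus luteum markers (23360 to 28070 against 7340 to 12700 CPM) are separate in opposite directions, and the sums of the other lists overlap. Without Zbed3 the sums of the maternal-effect genes overlap too. The growing oocyte sums overlap narrowly, at 570 CPM in Bnc1+/+ replicate 1 against 560 CPM in Bnc1tr/tr replicate 2, and the mean log2 CPM of that list is separate.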

How the data were processed

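The authors made single-end libraries from TRIzol-extracted total RNA of ovaries (Ion Total RNA-Seq kit), read them on the Ion Proton and deposited raw counts of reads per gene, without normalization. The aligner, counting tool and annotation are not given in the sources used here, and the submitters' processing notes name mm10 and Sscrofa10.2 with no role. Groups came from the genotype labels and replicate numbers from the sample titles. Counts were filtered with filterByExpr (minimum count 10), scaled with TMM and tested, two-sided, with edgeR 4.0.16 (glmQLFit, glmQLFTest; R 4.3.3), with Benjamini-Hochberg adjustment over 19423 genes and a threshold of 0.05. SE is the log2 fold change divided by the root of F. Ratios used log2 CPM with a prior count of 2. The steps were tested on simulated data. Alternatives were other scalings and filters, DESeq2 1.42.0, limma-voom (limma 3.58.1), a robust fit and leaving out each ovary. Positions and exon lengths came from GRCm38 with GENCODE M21, and promoters from RefSeq (GRCm38.p6). No 2 libraries of 1 genotype agreed within sampling noise. The members and gene lists were chosen with earlier results of these data known. Besides the 10 members, every called gene of a list was to be named, up to 6 by smallest p, with Bnc1 and the 10 transcripts of mean CPM at least 1 most like the members; other genes were named after their values were seen. One listed paralog, Tle5, had no match in the table.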

Additional observations from a re-analysis of the deposited data

How the results depend on the processing

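Under the 13 alternatives the log2 fold changes of the 10 genes stayed positive, and no gene was called lower. The number called higher was 3 in the analysis as reported. It was 6 with library size in place of TMM, 5 with no filter, 6 with DESeq2 and 2 with limma-voom, and 0 to 7 without 1 of the ovaries. The shares of all genes called higher were 2.88% as reported, 5.72% with library size, 1.97% with no filter, 5.56% with DESeq2 and 2.67% with limma-voom. They were 0.470% to 3.09% without 1 of the ovaries. Over all genes, 1372 were called as reported, 2420 with DESeq2 and 320 to 1282 without 1 of the ovaries. Chosen after seeing the data, scaling every library to the growing oocyte reference moved the median log2 fold change of all genes by -0.64, to -0.62, with 4951 genes called, of which 96.2% were lower. In that scaling 0 of the 10 genes were called by edgeR, and 0 had an unadjusted p under 0.05. Tle6 (-0.36), Ooep (-0.34), Khdc3 (-0.14), Padi6 (-0.34) and Dppa3 (-0.28) reversed there, and the median of the 10 genes was -0.06. The differences from the oocyte references kept their direction with a prior count of 0.5, with the median over the genes and without each ovary. No paired analysis was possible because the genotypes share only replicate number 1 and the labels name no littermates. With 3 ovaries per genotype and an adjusted p close to 0.05 for Btg4, these data do not settle which single genes pass the threshold.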
